A study of Mus musculus with 10 samples.

Results

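The genes described here are 49 listed genes of chromosome duplication and cell division, matched by symbol through the GENCODE M21 annotation to the gene identifiers of the files. Of these, 31 act in S phase, when DNA is copied, and 18 in M phase, when the copies are separated. All 49 were found among 54752 genes, and all 49 passed the filter on low counts that left 12752 genes for testing. They were measured by mRNA sequencing in a culture of mouse embryonic fibroblasts, connective tissue cells, on its way to pluripotency, the state from which all tissues of the embryo can form. The fibroblasts were primary cells of passage 2 from embryos of day 13.5. Their fathers (CBA/CaJ × C57BL/6J) carried an Oct4-GFP transgene, and their mothers were 129S4/SvJaeJ mice. Every library, D0 included, came from cells that had been exposed for 48 hours to retroviruses for Jdp2, Sall4, Esrrb and Glis1, so there is no uninfected group. The groups differ in how long the cells then stayed in the induction medium iCD3, namely for 0, 1, 3, 5 or 7 days (called D0, D1, D3, D5 and D7). There were 2 libraries for each day, replicates 1 and 2, and the series describes them as coming from separate experiments. How the cultures were kept apart is not stated, so p-values here reflect the spread of these libraries alone, part of which may be technical.

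A dividing cell first licenses its replication origins. The origin recognition complex (Orc1, Orc6) with Cdc6 and Cdt1 loads the ring of Mcm2 to Mcm7, and Cdc45 and the GINS proteins then turn it into the active helicase. DNA polymerase alpha with its primase, the sliding clamp Pcna and its loader copy the strands from nucleotides that ribonucleotide reductase and thymidylate synthase supply. Genes of this stage are classic targets of E2F factors, which cyclin E with Cdk2 helps to release from the retinoblastoma protein. Genes of mitosis are switched on later, through a promoter element named the cell cycle genes homology region (CHR), which is read by the DREAM and MuvB complexes, often beside CCAAT boxes that bind NF-Y. Their products include cyclin B with Cdk1, the Aurora and Polo kinases, spindle motors, kinetochore proteins and the checkpoint that holds back Cdc20.

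The promoters of S-phase and M-phase genes held different letters, a property that uses no expression value. RefSeq promoters of GRCm38.p6, 250 bases before to 50 after the start, were at hand for 25 S-phase genes (27 promoters) and 15 M-phase genes (15 promoters). Both strands were searched for the E2F letters TTTGGCGC, TTTCCCGC, TTTCGCGC or TTTGCCGC, for the CHR letters TTTGAA or TTTAAA, and for CCAAT. The E2F letters stood in 44.4% of S-phase promoters, 6.67% of M-phase promoters and 2.26% of all 32851 promoters. The CHR letters stood in 93.3% of M-phase promoters, against 29.6% of S-phase promoters and 27.6% of all promoters. CCAAT stood in 93.3% of M-phase promoters, 74.1% of S-phase promoters and 37.4% of all, and a CHR together with a CCAAT in 86.7%, 22.2% and 10.7%. A match is a description of letters and not a measured binding site, and TTTAAA reads the same on both strands. The sequences below are the 150 bases before the RefSeq start, 5′ to 3′ along the gene, with every motif match in capitals. Mcm6, Orc1 and Ccne1 are shown as S-phase genes with different time courses, and Cdk1, Ccnb1, Plk1 and Cdc20 as M-phase genes that were called below.
Mcm6, chr1:128359706-128359855, - strand: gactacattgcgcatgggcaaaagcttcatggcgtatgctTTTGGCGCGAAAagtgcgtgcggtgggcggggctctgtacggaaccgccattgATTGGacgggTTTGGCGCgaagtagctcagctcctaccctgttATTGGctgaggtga
Orc1, chr4:108579304-108579453, + strand: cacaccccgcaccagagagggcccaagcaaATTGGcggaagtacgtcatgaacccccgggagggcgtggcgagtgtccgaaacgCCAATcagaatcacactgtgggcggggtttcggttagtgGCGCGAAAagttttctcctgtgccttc
Ccne1, chr7:38107491-38107640, - strand: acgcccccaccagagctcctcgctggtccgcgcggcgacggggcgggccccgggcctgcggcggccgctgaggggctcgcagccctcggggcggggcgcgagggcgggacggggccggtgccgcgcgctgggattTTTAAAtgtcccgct
Cdk1, chr10:69352913-69353062, - strand: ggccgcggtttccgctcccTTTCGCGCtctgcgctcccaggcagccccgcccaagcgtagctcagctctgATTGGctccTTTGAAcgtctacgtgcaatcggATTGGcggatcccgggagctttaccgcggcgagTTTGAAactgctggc
Ccnb1, chr13:100786487-100786636, - strand: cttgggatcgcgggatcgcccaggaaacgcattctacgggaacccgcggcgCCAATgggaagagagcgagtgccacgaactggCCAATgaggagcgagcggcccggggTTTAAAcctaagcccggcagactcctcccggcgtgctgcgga
Plk1, chr7:122159285-122159434, + strand: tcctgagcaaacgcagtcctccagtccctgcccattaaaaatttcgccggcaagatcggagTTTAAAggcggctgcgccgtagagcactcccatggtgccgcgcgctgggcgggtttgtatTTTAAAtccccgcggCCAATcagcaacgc
Cdc20, chr4:118437344-118437493, - strand: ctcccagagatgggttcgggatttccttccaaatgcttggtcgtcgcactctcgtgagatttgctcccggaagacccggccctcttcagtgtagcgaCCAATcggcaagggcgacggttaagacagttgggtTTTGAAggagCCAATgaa
Mcm6 held E2F letters that begin 110, 106 and 47 bases before the start (the first 2 overlap), and Orc1 at 27 bases. Ccne1, the gene of cyclin E1, held none of the E2F letters searched in this window. That did not set it apart: 12 of the 25 S-phase genes held such letters, and Mcm2, Mcm10, Pcna, Rrm1 and Rrm2 were among those without. Cdk1 was the 1 M-phase promoter with E2F letters, 131 bases before the start, beside CHR letters at 71 and 15 bases. Of the 15 M-phase promoters searched, only that of Bub1 held no CHR letters. For Kif20a, Aurkb and Tpx2 no promoter was at hand.

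Sequencing was deeper in replicate 1, with totals of 2176457 to 4335931 estimated counts, than in replicate 2, with 1329377 to 1492105. Levels are given as CPM, counts scaled to a common library size, on which 3 counts stood for 0.653 to 2.32, and the precision for low genes was poorer in replicate 2. The deposited effective lengths imply fragments of 136 to 159 bases for replicate 1 but 199 to 204 for replicate 2. Replicate pairs varied beyond counting noise, with a chi-square per gene of 6.92 to 22.5. The summed level of 10 fibroblast markers was 552 and 850 CPM at D7 (replicates 1 and 2), against 11570 and 12850 CPM at D0. The sum of 8 pluripotency markers was 1417 and 1123 CPM at D7, against 0.979 and 7.48 CPM at D0. Markers of macrophages summed to 6.19 to 26.9 CPM, of endothelium to 20.6 to 122 CPM (highest at D7) and of red cells to 0 to 4.27 CPM over the libraries, and 3 of the 5 red cell markers were at 0 throughout.

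The M-phase genes stood lowest at D3 and were back near their first level at D7, while the S-phase genes stood higher in CPM at D5 and D7 than before. On the log2(TPM + 1) scale the S-phase level of replicate 2 was -0.15 at D5, against -0.11 at D0, so its higher level at D5 is lost there, and that at D7 is not (0.37). The level of a group in a library is the mean over its genes of log2 CPM relative to each gene's own mean over the 10 libraries. For the M-phase genes it averaged 0.38 at D0, -0.22 at D1, -0.82 at D3, 0.17 at D5 and 0.49 at D7 (SD 0.0035, 0.0769, 0.499, 0.612 and 0.0779, n = 2 each). For the S-phase genes it averaged -0.16 at D0, -0.15 at D1, -0.43 at D3, 0.36 at D5 and 0.38 at D7 (SD 0.0115, 0.0875, 0.322, 0.30 and 0.058, n = 2 each). D3 was the day of the lowest mean CPM for all 18 M-phase genes and for 23 of 31 S-phase genes. In both replicates taken alone it was the lowest day for 14 of the 18 and for 14 of the 31.

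**Figure D1:**
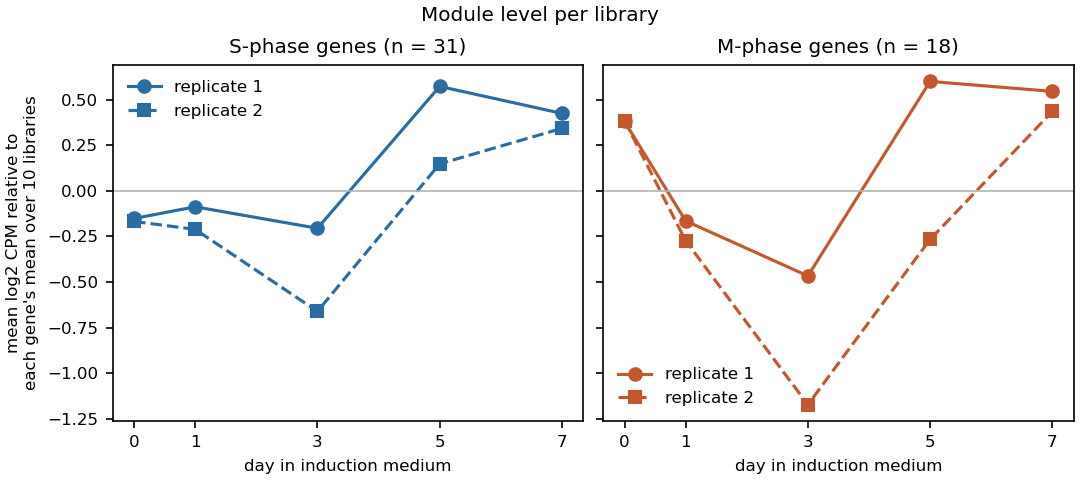
Mean log2 CPM relative to each gene's mean over the 10 libraries (vertical axis) by day in induction medium (horizontal axis), for the 31 S-phase genes (left) and the 18 M-phase genes (right). Circles are replicate 1 and squares replicate 2; both M-phase lines are lowest at D3 (-0.47 and -1.17) and both S-phase lines stand above their D0 level at D5 and D7 on this CPM scale, though on log2(TPM + 1) the D5 value of replicate 2 does not (-0.15, against -0.11 at D0).

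The plot of group levels by day shows the replicates close together at D0, D1 and D7 and apart at D3 and D5. As a share of all counts, the M-phase genes took 0.169% and 0.101% at D3 (replicates 1 and 2), against 0.281% and 0.264% at D0. Their share was 0.342% and 0.309% at D7. The S-phase genes took 0.37% and 0.363% of the counts at D7, against 0.24% and 0.25% at D0. The S-phase level minus the M-phase level was -0.53 and -0.55 at D0, 0.08 and 0.06 at D1, 0.26 and 0.51 at D3, -0.03 and 0.41 at D5 and -0.12 and -0.09 at D7 (replicates 1 and 2). These differences compare changes and not absolute amounts, since each gene is centred on its own mean. In such bulk samples, fewer dividing cells and less RNA per cell cannot be told apart.

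**Figure D2:**
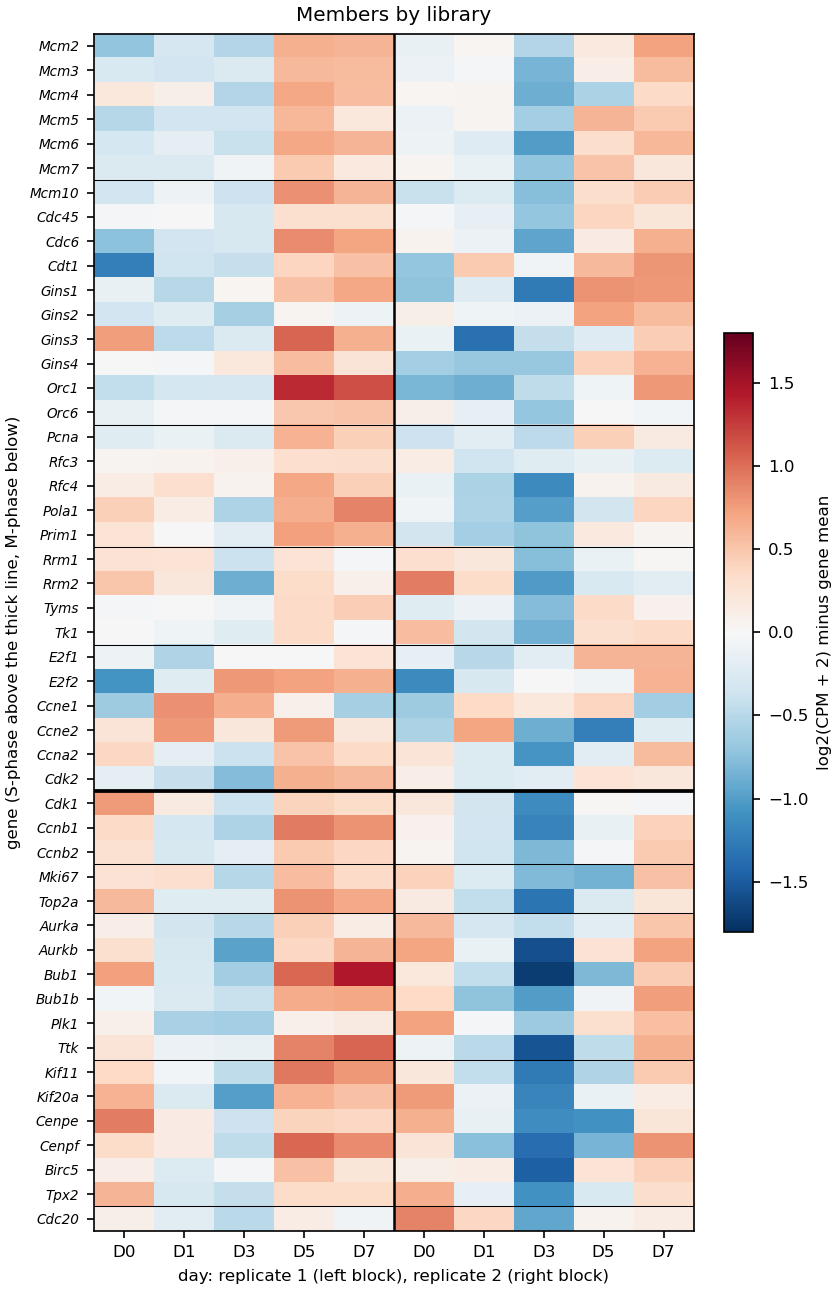
Each row is a listed gene, grouped by role, and each column a library, with replicate 1 in the left block and replicate 2 in the right. Colour gives log2(CPM + 2) minus the gene's mean over the 10 libraries; below the thick line, the M-phase rows are mostly blue at D3 in both blocks and red at D7.

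The map of all genes by library shows where single genes depart from their group. In the S-phase block Ccne1 is high at D1 and D3 and low at D0 and D7. E2f2 is lowest at D0 and next lowest at D1, and Rrm2 is highest at D0 in replicate 2. In the M-phase block Cdc20 is higher in replicate 2 than in replicate 1 at D0 and D1.

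At D3 the M-phase genes were lower than at D0 throughout. All 18 lay lower in both D3 libraries than in both D0 libraries, which held for 27.7% of all tested genes. In the test across all genes (edgeR quasi-likelihood F test, Benjamini-Hochberg adjusted over 12752 genes, called under 0.05, as for every adjusted p below), 6 of the 18 fell, beside 12.1% of all tested genes that were called, 5.94% lower and 6.21% higher. With the replicate number as a block, 15 of the 18 fell, beside 21.5% of all genes that were called and 11% that fell. The median log2 change of the 18 was -1.09, beside 0.02 for all tested genes, and it was -0.80 within replicate 1 and -1.53 within replicate 2.

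Of all 49 genes, Kif20a and Aurkb had the largest falls at D3 relative to D0. Kif20a (ENSMUSG00000003779, chr18:34624613-34633277 on GRCm38), a kinesin of the central spindle needed for cytokinesis, had 205 and 225 CPM at D0, 110 and 122 at D1, 65.3 and 56.6 at D3, 204 and 121 at D5 and 191 and 145 at D7 (replicates 1 and 2, in this order throughout). Aurkb (ENSMUSG00000020897, chr11:69045647-69051664), the kinase of the chromosomal passenger complex, had 59.7 and 80.8 CPM at D0, 39.6 and 44.8 at D1, 24 and 14.9 at D3, 63.8 and 58.8 at D5 and 75.5 and 81.5 at D7. For both genes the D3 libraries were the lowest of all 10. Kif20a fell by 1.82 on the log2 scale at D3 relative to D0 (SE 0.32, adjusted p = 0.00418) and Aurkb by 1.81 (SE 0.33, adjusted p = 0.005). Libraries were also left out 1 at a time, in each of the 10 ways. Kif20a kept its call whichever library was left out, with an adjusted p of at most 0.0424, whereas Aurkb lost it without D0 replicate 2 (adjusted p = 0.059).

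Tpx2, which targets Aurora A to spindle microtubules, had 234 and 240 CPM at D0, 124 and 137 at D1, 112 and 70.8 at D3, 192 and 125 at D5 and 191 and 189 at D7. Cdk1, the kinase that drives entry into mitosis, had 180 and 120 CPM at D0, 117 and 82.5 at D1, 79.3 and 46.9 at D3, 138 and 107 at D5 and 132 and 103 at D7. Cdc20, the activator of the anaphase-promoting complex, had 146 and 254 CPM at D0, 118 and 176 at D1, 97.2 and 70 at D3, 150 and 143 at D5 and 131 and 150 at D7. In each of these 3 genes both D3 libraries lay below both D0 libraries, and for Cdk1 and Cdc20 the gap between the replicates at D0 was itself large. Plk1, the Polo kinase of spindle assembly, had 120 and 188 CPM at D0, 74.9 and 111 at D1, 73.2 and 70.8 at D3, 120 and 138 at D5 and 127 and 165 at D7. At D3 relative to D0, Tpx2 fell by 1.36 (adjusted p = 0.0172), Cdc20 by 1.25 (adjusted p = 0.0368), Cdk1 by 1.24 (adjusted p = 0.0441) and Plk1 by 1.09 (adjusted p = 0.0487) on the log2 scale.

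Other settings ended each of these 4 calls. Tpx2 was not called without D0 replicate 1, D0 replicate 2 or D3 replicate 2 (adjusted p up to 0.122). Cdk1 and Plk1 were not called without any 1 of the 8 libraries of D0, D1, D3 and D7 (up to 0.324 and 0.38), nor Cdc20 without any 1 of these but D0 replicate 1 (up to 0.345). Plk1 also missed the threshold under RLE scaling (adjusted p = 0.0532), and Plk1 and Cdc20 under limma on TPM (0.0832 and 0.0564). The count of 6 became 1 without D0 replicate 2, 2 without D3 replicate 2, 3 without D0 replicate 1, either D1 or either D7 library, 4 without D3 replicate 1, and 11 without either D5 library. Their direction did not change in any of these fits. For fits with a library left out, here and below, the share of all genes called is not given.

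The difference between D7 and D3 was as general. At D7 all 18 M-phase genes lay higher in both libraries than in both D3 libraries, beside 29% of all tested genes, and D3 libraries enter both this comparison and the previous one. Between D7 and D3, 4 of the 18 rose, beside 5.37% of all tested genes that were called, 3.07% higher and 2.31% lower. With the replicate block 15 of the 18 rose, beside 18.4% of all genes that were called, 9.5% higher and 8.93% lower. The median log2 change was 1.11, beside 0.02 for all tested genes, with 0.88 within replicate 1 and 1.47 within replicate 2. Between D5 and D3 all 18 changes were also positive, with 11 of the 18 higher without overlap beside 17.7% of all genes, but edgeR called none there.

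Among these genes, Bub1b, the checkpoint kinase BubR1, had 109 and 144 CPM at D0, 94 and 67.6 at D1, 85.2 and 55.1 at D3, 181 and 107 at D5 and 184 and 191 at D7. Ccnb1, cyclin B1, had 169 and 140 CPM at D0, 106 and 105 at D1, 89.5 and 56.6 at D3, 255 and 121 at D5 and 234 and 177 at D7. Their D7 libraries stood above those of D0 as well as those of D3, and their replicates lay far apart at D5. Aurkb rose by 1.97 on the log2 scale at D7 relative to D3 (SE 0.32, adjusted p = 0.0136), Ccnb1 by 1.48 (SE 0.38, adjusted p = 0.0486), Kif20a by 1.46 (SE 0.31, adjusted p = 0.0293) and Bub1b by 1.40 (SE 0.35, adjusted p = 0.0441). Bub1b and Ccnb1 were not called without any 1 of the 8 libraries of D0, D1, D3 and D7 (adjusted p up to 0.258 and 0.282), Kif20a without any 1 of the 6 of D0, D3 and D7 (up to 0.225), or Aurkb without any 1 of the 4 of D3 and D7 (up to 0.119). Under limma on TPM, Kif20a, Ccnb1 and Bub1b missed the threshold (0.0594, 0.0589 and 0.118). The count of 4 became 0 without any 1 of those 4, 1 without either D0 library, 2 without either D1 library and 10 without either D5 library.

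Several M-phase genes with large changes were not called. Bub1, a kinase of the spindle checkpoint, had 94.4 and 63.6 CPM at D0, 45.6 and 40.6 at D1, 35.4 and 15.6 at D3, 116 and 30.9 at D5 and 154 and 76.9 at D7. Its log2 change at D7 relative to D3 was 2.14 (SE 0.59, adjusted p = 0.0612, or 0.0021 with the replicate block). The D5 libraries of Bub1 bracket those of D0, so its course differs between the replicates. Top2a, the topoisomerase that untangles sister chromatids, had 673 and 501 CPM at D0, 385 and 331 at D1, 387 and 180 at D3, 786 and 377 at D5 and 726 and 522 at D7. Mki67, which coats mitotic chromosomes and is the common marker of proliferation, had 337 and 376 CPM at D0, 349 and 238 at D1, 198 and 162 at D3, 414 and 156 at D5 and 357 and 406 at D7. Both were lower at D3 than at D0 and D7 without overlap. Aurka, the Aurora kinase of the spindle poles, had 79.3 and 109 CPM at D0, 57.2 and 58.3 at D1, 50.9 and 52.9 at D3, 98.1 and 63.4 at D5 and 79.8 and 103 at D7. At D3 relative to D0 the log2 changes of Top2a, Mki67 and Aurka were -1.05 (adjusted p = 0.154), -0.99 (0.157) and -0.86 (0.104), and the replicate block called all 3 (0.00963, 0.0484 and 0.0488).

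At the end of the course the M-phase genes stood near their level at the start. Between D7 and D0 none of the 18 was called by edgeR, with or without the replicate block, by DESeq2 or by limma on TPM. None had an unadjusted p under 0.05 by edgeR (1 with the block), beside 3965 of all 12752 tested genes without the block. In this comparison 17.9% of all tested genes were called, 9.15% higher and 8.71% lower, or 28.5% with the block. Their log2 changes had a median of 0.13, beside 0.06 for all genes, and 11 were positive and 7 negative. A p above the threshold does not show that levels were equal.

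At D1 the M-phase genes already had lower values. By edgeR on counts, all 18 M-phase genes had a negative log2 change at D1 relative to D0, with a median of -0.61. In CPM, 15 of the 18 lay lower in both D1 libraries than in both D0 libraries, beside 24.5% of all tested genes. In TPM, Cenpf went the other way, with 14.76 and 10.51 TPM at D0 and 17.82 and 18.25 TPM at D1. edgeR called none of them, where 4.52% of all genes were called (2.41% higher and 2.12% lower), and DESeq2 and limma on TPM also called none. Of the 18, 5 had an unadjusted p under 0.05 by edgeR, beside 2163 of all 12752 tested genes. With the block 1 was called, where 10.6% of all genes were called (5.27% higher and 5.32% lower). It was Kif20a (log2 change -0.89, adjusted p = 0.0423 with the block and 0.147 without).

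**Figure D3:**
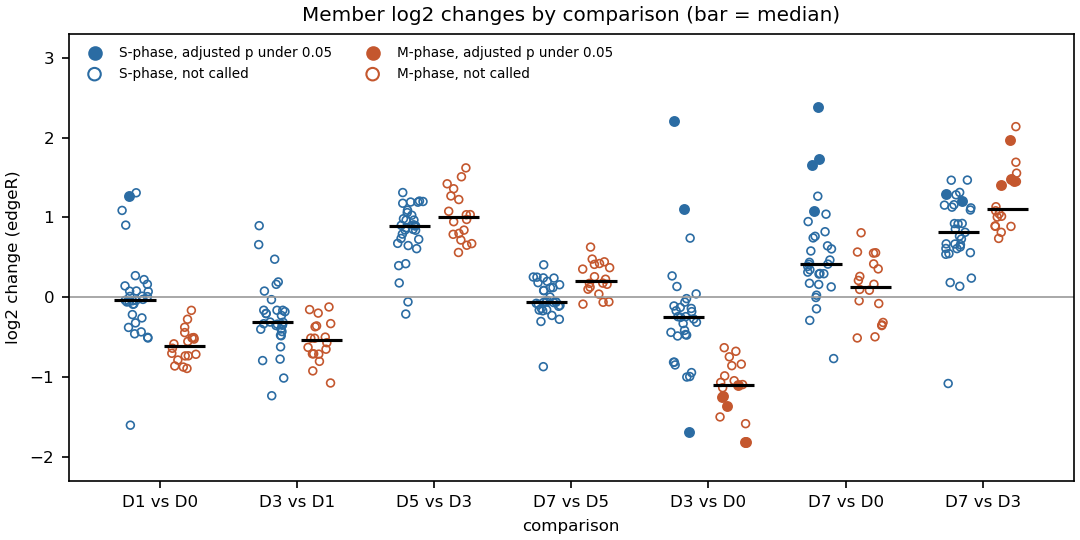
Log2 change of every listed gene (points) in 7 comparisons of days, S-phase in blue and M-phase in orange, with the black bar at the median of the group. Filled points have an adjusted p under 0.05; all M-phase points lie below 0 for D3 against D0 and above 0 for D7 against D3, with medians of -1.09 and 1.11.

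The plot of log2 changes by comparison sets these steps side by side. Between D3 and D1 no listed gene was called by edgeR, and 0.0549% of all genes were. There 2 S-phase and 3 M-phase genes had an unadjusted p under 0.05, beside 1083 of all 12752 tested genes, and 1 S-phase gene was called by DESeq2. With the block Rrm2 was called (adjusted p = 0.036), beside 1.62% of all genes, 0.831% higher and 0.784% lower. Between D5 and D3 edgeR again called no listed gene, and 0.0706% of all genes (0.0627% higher and 0.00784% lower). Yet 20 of 31 S-phase and 14 of 18 M-phase genes had an unadjusted p under 0.05, beside 1502 of all 12752 tested genes. The block called 5 of each group, all higher, beside 3.3% of all genes, 2.26% higher and 1.04% lower. There were calls also by DESeq2, of 1 S-phase and 2 M-phase genes, none by limma on TPM, and 3 and 5 by edgeR when D5 replicate 2 was left out. The 5 M-phase genes called with the block were Aurkb, Kif20a, Ccnb1, Cdk1 and Bub1, and the 5 S-phase genes Mcm5, Mcm6, Mcm10, Pcna and Pola1. Between D7 and D5 no listed gene was called by edgeR, with or without the block, by DESeq2 or by limma on TPM. There edgeR called 0% of all tested genes (with the block 0.157%, 0.125% higher and 0.0314% lower). Only 1 S-phase and 0 M-phase genes had an unadjusted p under 0.05 there, beside 810 of all 12752 tested genes.

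Most S-phase genes had higher values at D7 than at D0, by unequal amounts. At D7, 20 of the 31 lay higher in both libraries than in both D0 libraries, beside 34% of all tested genes, and 2 lay lower, beside 30.4%. The same D0 libraries serve all comparisons with D0. Between D7 and D0, 4 of the 31 rose and none fell, beside 9.15% of all genes that rose. With the replicate block 8 rose and Rrm2 fell, beside 14.8% of all genes that rose and 13.7% that fell. The median log2 change of the 31 was 0.41, beside 0.06 for all genes, and it was 0.44 within replicate 1 and 0.46 within replicate 2.

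The genes that load and activate the helicase (Orc1, Orc6, Cdc6, Cdt1, Cdc45, Mcm10 and the 4 GINS genes) had the highest median of the S-phase roles at D7 relative to D0, 0.85 over 10 genes, with all 10 changes positive. Cdt1 (ENSMUSG00000006585, chr8:122568015-122573554), the loading factor that geminin restrains, had 32.3 and 47.9 CPM at D0, 61.2 and 110 at D1, 58.5 and 75.3 at D3, 103 and 119 at D5 and 114 and 138 at D7. Every later library of Cdt1 stood above both D0 libraries. Orc1 (ENSMUSG00000028587, chr4:108579423-108614833), the subunit of the origin recognition complex that comes and goes with the cycle, had 15.2 and 11.2 CPM at D0, 16.7 and 10.7 at D1, 17 and 14.9 at D3, 57.2 and 20.1 at D5 and 50.2 and 38.1 at D7. Orc1 was flat up to D3 and high in replicate 1 first. Cdc6, the partner of Cdt1 in loading, had 16.6 and 30.7 CPM at D0, 22.5 and 27 at D1, 23.4 and 14.2 at D3, 54.4 and 32.5 at D5 and 49.2 and 46.7 at D7. Mcm10, which activates the loaded helicase, had 39.6 and 38.2 CPM at D0, 47.8 and 42.7 at D1, 38.9 and 29.1 at D3, 91.6 and 64.2 at D5 and 79 and 71 at D7. At D7 relative to D0, Cdt1 rose by 1.66 on the log2 scale (SE 0.35, adjusted p = 0.00877) and Orc1 by 1.73 (SE 0.48, adjusted p = 0.0302). Mcm10 had a log2 change of 0.95 (SE 0.30, adjusted p = 0.0521, or 0.0128 with the block) and Cdc6 of 1.04 (SE 0.40, adjusted p = 0.101).

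The 6 genes of the MCM ring had higher values at D7 than at D0 and D3. Mcm2 (ENSMUSG00000002870, chr6:88883474-88898780) had 113 and 170 CPM at D0, 150 and 191 at D1, 129 and 129 at D3, 293 and 211 at D5 and 287 and 309 at D7. Mcm6 had 129 and 150 CPM at D0, 143 and 137 at D1, 121 and 79 at D3, 262 and 202 at D5 and 248 and 244 at D7. Mcm5 had 116 and 156 CPM at D0, 132 and 173 at D1, 131 and 110 at D3, 256 and 258 at D5 and 192 and 233 at D7. In these 3 genes all D5 and D7 libraries stood above all earlier ones. Mcm2 rose by 1.08 at D7 relative to D0 (SE 0.30, adjusted p = 0.0308) and by 1.21 relative to D3 (SE 0.30, adjusted p = 0.0453), and Mcm6 rose by 1.29 relative to D3 (SE 0.29, adjusted p = 0.0337). The 6 MCM genes had a median log2 change of 0.70 at D7 relative to D0, of 1.13 relative to D3 and of -0.29 at D3 relative to D0, where none was called.

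The only S-phase gene that fell in a comparison without the block belongs to nucleotide supply. Rrm2 (ENSMUSG00000020649, chr12:24708241-24714146), the small subunit of ribonucleotide reductase, had 294 and 392 CPM at D0, 239 and 260 at D1, 111 and 101 at D3, 260 and 171 at D5 and 221 and 181 at D7. Its D3 libraries were the lowest, and its D7 libraries lay below both D0 libraries. Rrm2 fell by 1.69 on the log2 scale at D3 relative to D0 (SE 0.31, adjusted p = 0.00506). At D7 relative to D0 its log2 change was -0.77 (adjusted p = 0.102, or 0.0394 with the block). The 4 genes of this role had a median log2 change of -0.83 at D3 and of -0.22 at D7, both relative to D0. Pcna, the sliding clamp, had 152 and 136 CPM at D0, 163 and 155 at D1, 149 and 127 at D3, 274 and 240 at D5 and 239 and 200 at D7. Its log2 change at D7 relative to D0 was 0.60 (adjusted p = 0.135, or 0.0455 with the block), and no gene of the clamp, its loader or polymerase alpha was called in any comparison by the fit without the block.

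The cyclin E and E2F genes had the most varied courses. Ccne1 (ENSMUSG00000002068, chr7:38097984-38107534) had 84.2 and 83.8 CPM at D0, 235 and 169 at D1, 210 and 151 at D3, 141 and 172 at D5 and 86.1 and 84.8 at D7. It was high from D1 to D5 and back at its starting value at D7, and it was the only listed gene that edgeR called between D1 and D0 without the block. With the block Cdt1 was called there too (log2 change 1.09, adjusted p = 0.0165, or 0.122 without the block). Ccne1 rose by 1.27 on the log2 scale at D1 relative to D0 (SE 0.29, adjusted p = 0.0319) and by 1.11 at D3 relative to D0 (SE 0.29, adjusted p = 0.0309). At D7 relative to D3 its log2 change was -1.08 (adjusted p = 0.054, or 0.0115 with the block). E2f2, an activator E2F, had 2.45 and 2.25 CPM at D0, 6.09 and 5.69 at D1, 14 and 7.45 at D3, 13.5 and 6.96 at D5 and 12.6 and 12.5 at D7. Those D0 values rest on 5 and 3 counts, and the D7 values on 58 and 19. E2f2 rose by 2.20 on the log2 scale at D3 (SE 0.62, adjusted p = 0.0411) and by 2.39 at D7 (SE 0.62, adjusted p = 0.0218), both relative to D0. E2f1, the best known activator E2F, had 31.8 and 30.7 CPM at D0, 22.8 and 23.5 at D1, 34.2 and 29.8 at D3, 34.1 and 53.4 at D5 and 40.9 and 53.2 at D7. It was called in no comparison (log2 change 0.58 at D7 relative to D0, adjusted p = 0.255).

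**Figure D4:**
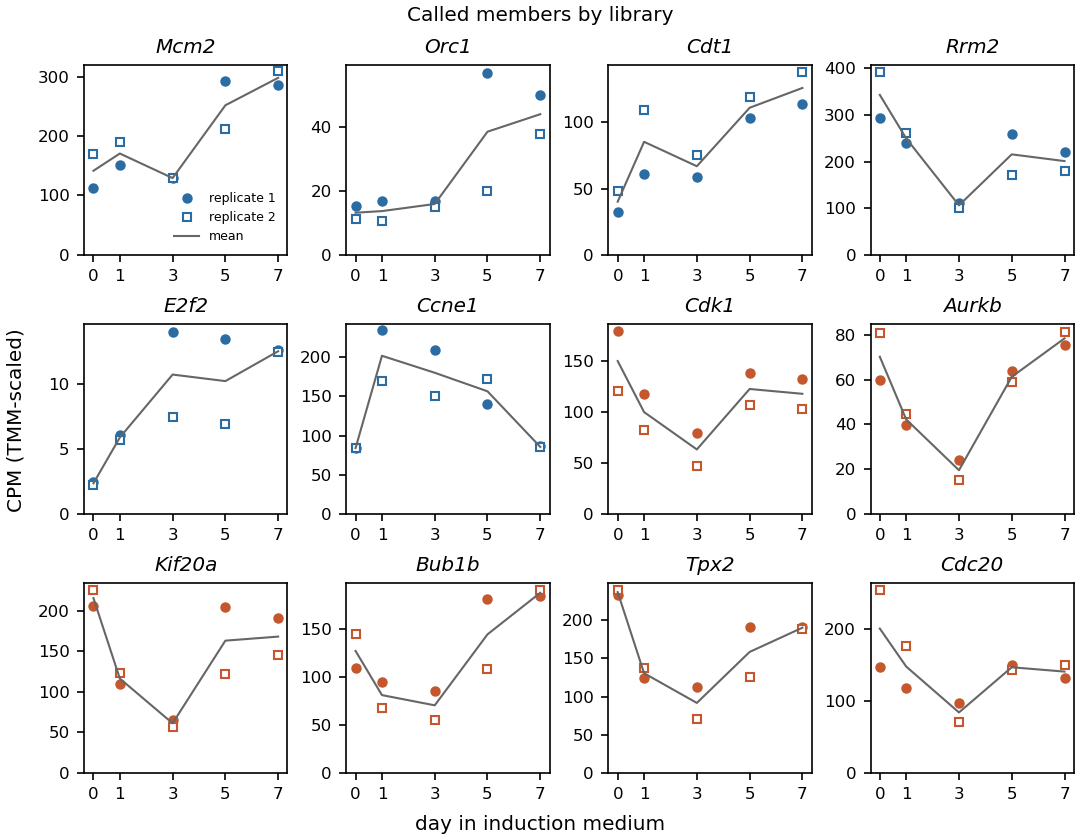
CPM (vertical axes, from 0) by day in induction medium for 12 of the listed genes that were called in at least 1 comparison. Filled circles are replicate 1, open squares replicate 2 and the line is their mean; Ccne1 peaks at D1 (235 and 169 CPM) while the M-phase genes in orange are lowest at D3.

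The plots of called genes by day show the S-phase genes on several courses. Between D3 and D0, 3 of the 31 S-phase genes were called, Ccne1 and E2f2 higher and Rrm2 lower, beside 12.1% of all genes. With the block 7 were called, beside 10.5% of all genes higher and 11% lower, with Cdt1 also higher and Pola1, Rrm1 and Ccna2 also lower. Their median log2 change was -0.25, and 10 lay lower and 3 higher without overlap, beside 27.7% of all genes lower and 27.7% higher. At D7 relative to D3, 26 of the 31 lay higher without overlap, beside 29% of all genes, and the median was 0.81. There 2 rose (Mcm2 and Mcm6), beside 3.07% of all genes, or 15 with the block, beside 9.5%, and with the block Ccne1 alone fell.

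Single libraries decided many of the S-phase calls. Cdt1 lost its D7 call without D0 replicate 1 (adjusted p = 0.0899) and Rrm2 its D3 call without D0 replicate 2 (0.0613). At D7 relative to D0, Mcm2, Orc1 and E2f2 were not called without any 1 of the 4 libraries of D0 and D7 (up to 0.208, 0.175 and 0.122). Ccne1 was not called at D1 without any 1 of the 6 libraries of D0, D1 and D7 (up to 0.264), or at D3 without D0 replicate 1, D0 replicate 2, D3 replicate 1 or D7 replicate 1 (up to 0.168). E2f2 at D3 relative to D0, and Mcm2 and Mcm6 at D7 relative to D3, were not called without any 1 of the 8 libraries of D0, D1, D3 and D7 (up to 0.258, 0.222 and 0.222). DESeq2 did not call E2f2 at D3 (adjusted p = 0.0791). Under limma on TPM, E2f2 missed the threshold at D3 and D7 (0.102 and 0.285), Orc1 at D7 (0.23) and Mcm2 at D7 (0.0507 relative to D0 and 0.0685 relative to D3). The 4 calls at D7 relative to D0 became 0 without D0 replicate 1, 1 without D0 replicate 2 or either D7 library, and 7 without D5 replicate 1. The 2 at D7 relative to D3 became 0 without any 1 of those 8 libraries and 11 without either D5 library. The 3 at D3 relative to D0 became 0 without D0 replicate 2, 1 without D0 replicate 1, D3 replicate 1 or D7 replicate 1, 5 without D5 replicate 1 and 6 without D5 replicate 2.

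Over the whole course, a test of any difference between days called 2 of 18 M-phase genes, Aurkb (adjusted p = 0.0095) and Kif20a (0.0155). It called 7 of 31 S-phase genes, which were Ccne1 (0.0193), Rrm2 (0.0227), Mcm6 (0.0301), Orc1 (0.033), Mcm10 (0.0335), Cdt1 (0.035) and Mcm2 (0.0402). Of all tested genes 19.1% were called. With the block these counts were 14 and 17, beside 34.9% of all genes. The M-phase count became 0 without D3 replicate 2, 1 without either D0 library or D3 replicate 1, 10 without D5 replicate 1 and 9 without D5 replicate 2. The S-phase count became 0 without any 1 library of D0 or D7, 2 without either D1 library, 4 without D3 replicate 1, 1 without D3 replicate 2 and 13 without D5 replicate 2.

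The replicates parted on the days when the genes turned. Replicate 2 minus replicate 1, the median log2 difference over the M-phase genes was -0.66 at D3 and -0.75 at D5, against -0.06 at D0, -0.12 at D1 and -0.03 at D7. Over the S-phase genes it was -0.45 at D3 and -0.46 at D5, and over all tested genes it lay between -0.03 and 0 on every day. The pluripotency markers summed to 54.4 CPM at D3 and 823 CPM at D5 in replicate 2, beside 230 and 1392 CPM in replicate 1. They were 7.48 CPM in replicate 2 and 0.979 in replicate 1 at D0, 4.98 and 18.9 CPM at D1, and 1123 and 1417 CPM at D7. The D0 and D1 sums lie near the floor, where 3 counts stood for 0.913 to 2.25 CPM. Of the 8 markers, 4 and 1 had any count at D0 (replicates 2 and 1) and 4 and 5 at D1. Library totals were also lower in replicate 2, as on every day. The part of the pluripotency markers or of depth in the M-phase and S-phase differences was not tested. Within each replicate all 18 M-phase genes were lower at D3 than at D0 and higher at D7 than at D3. From D5 to D7 the replicates differed in direction. In replicate 1, 13 of the 18 had a negative change and 5 a positive one (median log2 change -0.09), beside 6697 negative of all 12752 tested genes. In replicate 2, 17 had a positive change and 1 a negative one (median 0.57), beside 6353 positive of all tested genes.

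Other genes of the same pathways were read from lists written down beside the 49. Of 60 other mitosis genes, 10 fell at D3 relative to D0 (28 with the block) and none rose, beside 5.94% of all tested genes that fell (11% with the block), and their median log2 change was -0.92. Between D7 and D3, 8 of the 60 rose (41 with the block), beside 3.07% of all genes (9.5% with the block), with a median of 1.15. The 10 were Foxm1, Kif2c, Kif4, Kif23, Prc1, Anln, Racgap1, Dlgap5, Cep55 and Cks1b. Cep55, which recruits the machinery of abscission, had 8.49 and 10.4 CPM at D3, against 55.3 and 36.7 CPM at D0 (log2 change -2.31, SE 0.44, adjusted p = 0.00651, not called without D0 replicate 1 or D3 replicate 1, up to 0.0891). Foxm1, the transcription factor of the mitotic programme, had 43.3 and 49.2 CPM at D3, against 99.8 and 138 CPM at D0 (log2 change -1.36, SE 0.33, adjusted p = 0.0224, not called without any 1 D0 or D3 library, up to 0.194). At D7 relative to D0, 1 of the 60 was called, beside 17.9% of all genes, and the 18 listed M-phase genes had none. It was Mybl2, the B-Myb partner of MuvB, with 299 and 249 CPM at D7, against 44.5 and 62.1 CPM at D0 (log2 change 2.37, SE 0.33, adjusted p = 0.000965, and at most 0.0184 without any 1 library). With the block 5 of the 60 were called there, beside 28.5% of all genes.

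Of 43 other replication genes, 7 rose at D7 relative to D0 and Asf1b fell (19 and 1 with the block), beside 9.15% of all genes that rose and 8.71% that fell (14.8% and 13.7% with the block), and their median log2 change was 0.82. Lig1, the ligase that joins Okazaki fragments, had 201 and 206 CPM at D7, against 66.1 and 80.1 CPM at D0 (log2 change 1.48, adjusted p = 0.0203, not called without any 1 D0 or D7 library, up to 0.138). Asf1b, a histone chaperone, had 30.7 and 20.4 CPM at D7, against 47 and 68.9 CPM at D0 (log2 change -1.15, adjusted p = 0.0426, not called without any 1 of the 8 libraries of D0, D1, D3 and D7, up to 0.295, or by DESeq2, 0.0669). At D7 relative to D0, limma on TPM called neither Lig1 nor Asf1b (adjusted p = 0.0639 and 0.15), and edgeR without the low-count filter did not call Asf1b (0.0631). Of 18 genes of replication stress and repair, 5 rose at D7 relative to D0 (11 with the block), beside the same 9.15% and 14.8% of all genes, with a median of 1.10. Relative to D3, 7 of the 18 rose (16 with the block), beside 3.07% of all genes (9.5% with the block). Ung, which removes uracil from DNA, had 40.2 and 68.3 CPM at D7, against 12.2 and 13.5 CPM at D0 (log2 change 2.06, SE 0.38, adjusted p = 0.00439, or 0.0501 without D0 replicate 1). Msh6, a mismatch repair protein, had 380 and 275 CPM at D7, against 72.4 and 75.6 CPM at D0 (log2 change 2.15, SE 0.42, adjusted p = 0.00569, or 0.0572 without D0 replicate 1). For both genes the D7 libraries stood above the D0 libraries.

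Regulators of the entry into S phase had shares of called genes at or below that of all genes at D7 relative to D0, with 3 of 17 cyclins, kinases and E2F factors (17.6%) and 1 of 14 pocket proteins and kinase inhibitors (7.14%), beside 17.9% of all genes. Cdkn1c, the gene of the inhibitor p57, had 230 and 138 CPM at D0, 864 and 849 at D1, 1839 and 1872 at D3, 479 and 1208 at D5 and 336 and 332 at D7. It was highest at D3, the day when the M-phase genes were lowest, and any link between them was not tested. The list that holds Cdkn1c did not as a whole share its course. At D3 relative to D0, 9 of the 14 had a negative change, with a median of -0.58. Only Cdkn1c of the 14 was called there, beside 12.1% of all genes, and with the block 2 rose and 3 fell. Cdkn1c rose by 3.33 on the log2 scale at D3 relative to D0 (SE 0.44, adjusted p = 0.00096, at most 0.0152 without any 1 library) and fell by 2.47 at D7 relative to D3 (SE 0.43, adjusted p = 0.0152, not called without any 1 D3 or D7 library, up to 0.134). Cdkn1a, the gene of p21, fell by 2.15 at D7 relative to D3 (SE 0.43, adjusted p = 0.0246, not called without any 1 D3 or D7 library, up to 0.204). Cdkn1c and Cdkn1a were the 2 of the 14 called between D7 and D3, beside 2.31% of all genes that fell. The 3 of 17 were the D-type cyclins, the partners of Cdk4 and Cdk6, which fell at D7 relative to D0. Ccnd2 had 169 and 170 CPM at D7, against 602 and 660 CPM at D0 (log2 change -1.90, SE 0.29, adjusted p = 0.00146, at most 0.0249 without any 1 library). Ccnd1 had 88.5 and 152 CPM at D7, against 386 and 557 CPM at D0 (log2 change -1.98, SE 0.38, adjusted p = 0.00509, or 0.0703 without D7 replicate 1). Ccnd3 fell by 1.05 (adjusted p = 0.0354), a call that only 3 of 10 fits without 1 library kept (up to 0.284).

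**Figure D5:**
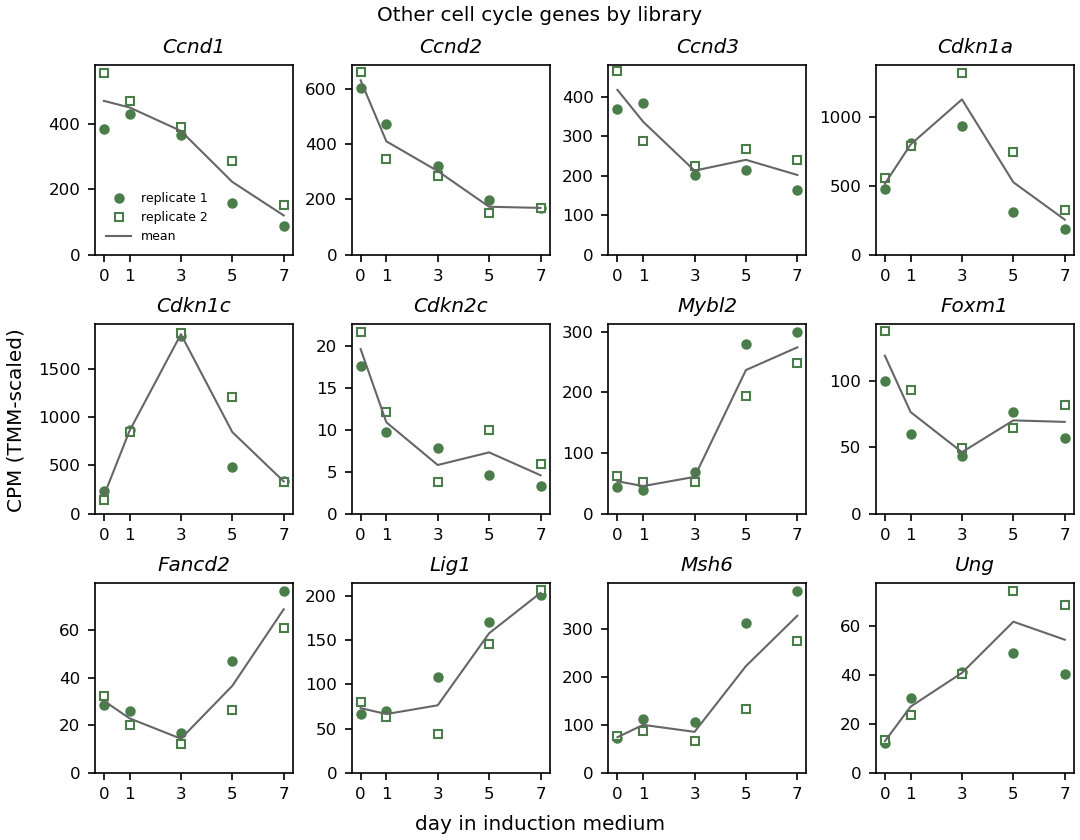
CPM (vertical axes, from 0) by day in induction medium for 12 cell cycle genes outside the 49, with filled circles for replicate 1, open squares for replicate 2 and a line at the mean. Cdkn1c peaks at D3, the D-type cyclins are lowest at D7 or near it, and Mybl2, Lig1 and Msh6 are highest at D7.

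The plots of these other genes show the D-type cyclins lower at D7 than at D0 and Mybl2, Lig1 and Msh6 higher. Ccnd3 missed the threshold at D7 relative to D0 under limma on TPM (adjusted p = 0.0517). Of the 14 pocket proteins and kinase inhibitors, the 1 called at D7 relative to D0 was Cdkn2c, the gene of p18. It fell by 2.16 (adjusted p = 0.0301, not called without any 1 D0 or D7 library). With the block 4 were called there, all lower, beside 13.7% of all genes that fell.

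Levels between genes can be compared per transcript length in the deposited TPM values. By median TPM over the 10 libraries, the M-phase genes ran from 16.3 TPM for Cenpf, a kinetochore protein, to 207 TPM for Cdk1, and the S-phase genes from 3.32 TPM for Gins3 to 168 TPM for Pcna. Cdk1 and Top2a (205 TPM) led the order and were followed by Pcna and Rrm2 (167 TPM), and neither pair differed beyond the spread between libraries. Cdk1 averaged 102 ± 28.4 TPM at D3 and 261 ± 72.8 TPM at D0 (SD, n = 2 each). The counts of Pcna, Tyms and Kif20a were not whole in any of the 10 libraries, so reads of these genes were in part shared with other loci by estimation.

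The genes most like each group were found by Pearson's r between log2 CPM and the group level over the 10 libraries, among genes outside the 49 with a mean of at least 10 CPM. For the M-phase level these were Spag5, Kif14, Kif4, Cntrl and Ipo5 (r = 0.979, 0.974, 0.974, 0.974 and 0.972), of which Spag5, Kif14 and Kif4 were in the list of other mitosis genes. For the S-phase level they were Etaa1, Nup54, Ppat, Exo1 and Mpp6 (r = 0.979, 0.977, 0.969, 0.968 and 0.964), of which Exo1 was in the repair list. The libraries are pairs of the same 5 days, so r describes a shared course over days and is given without a p.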

How the data were processed

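The authors sequenced mRNA on an Illumina NextSeq. The labels list 2 library kits for all samples, so the kit of a given library is unknown. Per the submitters' processing notes, bcl2fastq, Bowtie2, RSEM and the build mm10 were used. Their versions and the annotation are not stated. Per the file headers, the deposited values are RSEM expected counts per gene (not normalized, not always whole) and TPM; the deposited FPKM were not used.

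Expected counts were rounded. R 4.3.3 with edgeR 4.0.16 and limma 3.58.1 gave a quasi-likelihood F test from 1 model with a term per day over all 10 libraries, TMM scaling, filterByExpr with a minimum count of 10, and Benjamini-Hochberg adjustment over 12752 genes. CPM are TMM-scaled, and log2 CPM has a prior count of 2. Each SE is the size of the log2 change over the root of its F value. Alternatives were RLE scaling, no filter, the replicate number as a block, DESeq2 1.42.0, limma on log2(TPM + 1) and leaving out each library. Simulated data were used as a test of the model at D7 against D0: 0% of genes changed 2-fold, 58.2% of those changed 4-fold and 84.8% of those changed 8-fold were recovered, with 9 false calls among 104. Only 200 of 12752 genes were changed there, whereas 17.9% of all tested genes were called in the data. The adjustment is stricter when few genes change, so these shares do not measure what the data could detect.

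Replicate numbers pair the libraries: deviations from the day means correlated in all 10 pairs of days (r 0.273 to 0.436), so counts with the block are given too. Blocked p-values are given for only part of the genes whose call the block changed. At D7 relative to D3, for example, it also called Cdk1, Plk1, Top2a and Mki67. Named genes were role representatives (Mcm2, Mcm5, Cdt1, Cdc6, Pcna, Rrm2, E2f1, Ccne1, Cdk1, Ccnb1, Mki67, Top2a, Aurka, Plk1, Cdc20, Bub1), at most 8 further called genes of each group by smallest p of the any-day test, and up to 3 called genes up and 3 down per other list and comparison; the rest of the 10 mitosis genes were named after their values were seen. The members, lists and tests were chosen with earlier results of these data known. Gene names and loci came from GENCODE M21, which matched 54723 identifiers. A called gene of the repair list is not reported here. Counting limits cover counting error only.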

Additional observations from a re-analysis of the deposited data

How the results depend on the processing

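No called result turned its direction under the settings tried. Some uncalled values did, near 0 and further from it. The S-phase level at D1 minus D0 was 0.01, but -0.01 under RLE scaling and -0.05 on log2(TPM + 1). The median change of the helicase loading and activation genes at D7 against D5 was -0.03, but 0.01 with the replicate block. Cenpf averaged 86.3 CPM at D0 and 60 CPM at D1, but 12.6 and 18 TPM. E2f2 averaged 10.7 CPM at D3 and 12.6 CPM at D7, but 9.64 and 4.92 TPM. With the replicate block the counts of called S-phase genes became 2 (D1 against D0), 1 (D3 against D1), 5 (D5 against D3), 7 (D3 against D0), 9 (D7 against D0), 16 (D7 against D3) and 17 (any day), and those of M-phase genes 1 (D1 against D0), 5 (D5 against D3), 15 (D3 against D0), 15 (D7 against D3) and 14 (any day). Without the low-count filter, 4 M-phase genes were called for D5 against D3, then 10 for D3 against D0, 10 for D7 against D3 and 11 for any day. In that setting 9 S-phase genes were called for D7 against D3. DESeq2 called 1 S-phase gene for D3 against D1, 1 S-phase and 2 M-phase genes for D5 against D3, 8 of each group for D7 against D3, and 11 and 6 for any day. limma on log2(TPM + 1) called 1 S-phase gene for D7 against D0, 1 M-phase gene for D7 against D3 and 2 S-phase genes for any day. On log2(TPM + 1) the M-phase level at D7 minus that at D0 was 0.20. The cause of these differences was not tested. A setting can change the calls of all genes: the block took the share called at D7 relative to D3 from 5.37% to 18.4%. For the fits without the filter, by DESeq2 and by limma the share of all genes called is not given. Their counts, here and above, therefore do not set the listed genes apart from the rest.

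With each library left out in turn, the counts of S-phase genes ran from 0 to 1 for D1 against D0, 0 to 3 for D5 against D3, 0 to 6 for D3 against D0, 0 to 7 for D7 against D0, 0 to 11 for D7 against D3 and 0 to 13 for any day. Those of M-phase genes ran from 0 to 5 for D5 against D3, 1 to 11 for D3 against D0, 0 to 10 for D7 against D3 and 0 to 10 for any day. The lone library left on a day is then assumed to vary like the others. The share of all genes called is not given for these fits either, so their counts do not set the listed genes apart.

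In simulated data with 2 libraries a day and only 200 of 12752 genes changed, 2-fold changes were not recovered. In the data, where far more genes were called, changes near 2-fold were called, such as that of Mcm2 at D7 relative to D0 (log2 change 1.08). The simulation therefore sets no limit for the data. Depth limits low genes such as E2f2, Gins1 and Gins3 most.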
